A study of Mus musculus with 12 samples.

Results

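The CC chemokine genes *Ccl2*, *Ccl7*, *Ccl8*, *Ccl9* and *Ccl11* were followed across the cell types, fibroblast subsets and libraries of a single-cell RNA sequencing experiment on mouse joints. They were picked by symbol, as 5 of the 27998 genes in the deposited tables, because their products attract monocytes or eosinophils. The experiment used 12 libraries of live cells sorted as CD45-negative (CD45 marks blood-derived immune cells) from digested hind limb joints of wild-type C57BL/6 mice, male and 8 to 10 weeks old by the study's methods. Serum transfer-induced arthritis (STIA), an arthritis that K/BxN serum injected into a vein (100 µl) brings about and that later subsides, was sampled at 4 stages, with 3 libraries each. Libraries labelled rest came from untreated animals (day 0), and those labelled peak, resolving and resolved came from treated animals at days 7 to 9, day 15 and day 22. Each library pooled the joints of 3 animals, so n counts pools.

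Chemokines are small secreted proteins that guide leukocytes along a gradient by binding receptors on their surface, and the CC family is named for a pair of adjacent cysteines near the start of the mature protein. *Ccl2* and *Ccl7* encode ligands of CCR2, the receptor that brings monocytes out of the bone marrow and into inflamed tissue. The product of mouse *Ccl8* acts through CCR8, that of *Ccl9* through CCR1 on monocytes, neutrophils and osteoclast precursors, and that of *Ccl11*, eotaxin, through CCR3 on eosinophils. In inflamed joints, fibroblasts of the synovium, the soft tissue around the joint space, are a known source of such ligands.

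All 5 genes lie on mouse chromosome 11 (GRCm38, the assembly called mm10, with GENCODE M21 gene models). *Ccl2* (ENSMUSG00000035385, chr11:82035571-82037453), *Ccl7* (ENSMUSG00000035373, chr11:82045712-82047525), *Ccl11* (ENSMUSG00000020676, chr11:82057823-82062955) and *Ccl8* (ENSMUSG00000009185, chr11:82115185-82116799) follow each other on the plus strand within 81229 bases. *Ccl9* (ENSMUSG00000019122, chr11:83572919-83578636) sits on the minus strand, 1456119 bases beyond the end of *Ccl8*. The coding stretches around the cysteine pair are given here because they are what the family shares and because they show how far the neighbours differ in sequence. Each is 36 bases of the coding strand, and capitals mark the codons of the adjacent cysteines.

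Ccl2: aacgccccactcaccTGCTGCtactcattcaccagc
Ccl7: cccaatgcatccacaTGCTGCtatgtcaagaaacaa
Ccl8: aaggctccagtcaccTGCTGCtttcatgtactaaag
Ccl9: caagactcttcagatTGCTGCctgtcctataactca
Ccl11: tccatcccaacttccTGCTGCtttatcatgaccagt

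The same 2 codons spell the pair in all 5 genes, beginning at codon 34 in *Ccl2*, 33 in *Ccl7*, 32 in *Ccl8* and *Ccl11* and 57 in *Ccl9*. No window of 75 bases, the length of the read, was shared between the transcript of any of the 5 and a transcript of another gene, so reads without errors could be placed on 1 member. *Ccl2* overlaps 1 other gene, Gm17268, on the opposite strand, and the other 4 overlap none.

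Cells were kept within the study's limits on genes and UMIs (unique molecular identifiers, which count captured RNA molecules), and 20060 of 21042 remained. They were clustered without the 5 members and the other CC chemokines, and clusters were named from marker genes. A name such as fibroblast therefore means a cluster with the markers of that type. Fibroblasts formed 11 clusters with 11458 cells, and each of their 7 markers was found in 20% of them or more. The 12 libraries had the same median of 5358 UMIs per deposited cell, no 2 of them shared a cell barcode, and they held 7468914 to 16566202 UMIs in the cells kept. Levels are given in CPM, the UMIs of a gene after the summed cells of a type in a library were scaled to a common total, for sums of at least 10 cells.

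The stage labels need a caution before any value. Each deposited library carries its own barcode suffix, 1 to 12, and in the summed fibroblasts each of the 12 libraries was most alike (highest correlation across 11755 genes) to a library of the same run of 3 consecutive suffixes, never to one of its own label. The runs hold rest 1, peak 1 and resolving 1 (suffixes 1 to 3), resolved 1, rest 2 and peak 2 (4 to 6), resolving 2, resolved 2 and rest 3 (7 to 9), and peak 3, resolving 3 and resolved 3 (10 to 12). What a run stands for was not tested, and stages are named below as the labels give them.

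*Ccl7* and *Ccl2* were the abundant members and fibroblasts held most of their RNA. Over all cells kept, 170146 UMIs of *Ccl7* and 142532 of *Ccl2* were counted, against 11227 of *Ccl11*, 3253 of *Ccl8* and 2157 of *Ccl9*. Fibroblasts held 80.3% of the *Ccl7* UMIs, 71.9% of *Ccl2*, 82.8% of *Ccl8* and 76.2% of *Ccl11*, but 40.2% of *Ccl9*. They were also 11458 of the 20060 cells kept, and these shares should be read against that. The remaining *Ccl11* lay mostly in perivascular cells (18.5%), and the remaining *Ccl9* was divided among proliferating cells (22.8%), immune cells left after the sort (15.2%) and unnamed clusters (21.2%). Unnamed clusters of 1198 and 891 cells each had all 7 fibroblast markers in 20% of cells or more, as did the proliferating cluster. The osteoblast cluster did so too, so these markers alone do not set fibroblasts apart. The UMIs of all these clusters are not in the fibroblast shares.

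In fibroblasts, *Ccl7* reached 1768 ± 1000 CPM (SD, n = 12 libraries), with a lowest value of 703, a median of 1392 and a highest of 3411. *Ccl2* reached 1350 ± 582 CPM, from 701 through a median of 1043 to 2201. *Ccl11* came to 118 ± 61.4 CPM (34.0 to 210). The last pair was low, with 36.4 ± 10.6 CPM for *Ccl8* (23.6 to 63.4) and 11 ± 9.21 CPM for *Ccl9* (0.933 to 27.0). The levels of *Ccl2* and *Ccl7* did not overlap with those of the other 3 members in any library. These are counts of 3′ tags, which do not grow with transcript length.

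**Figure D1:**
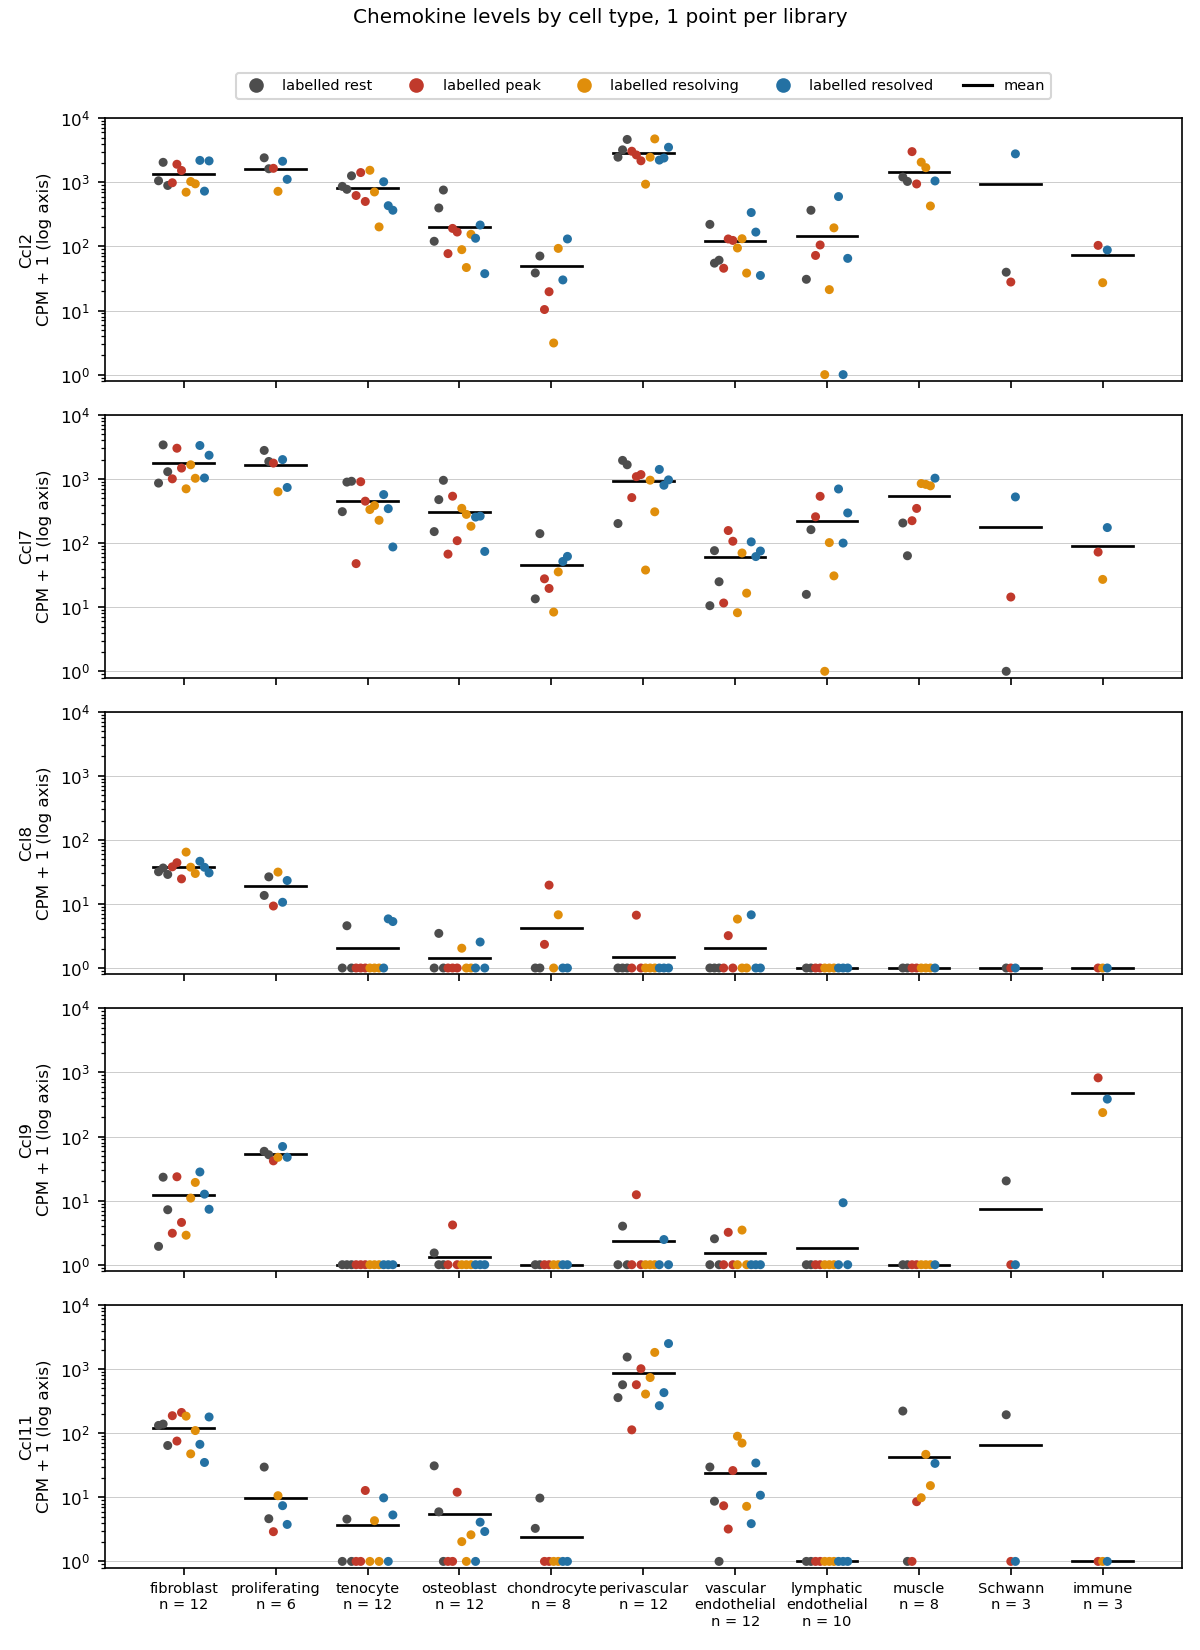
Level of each chemokine (CPM + 1 on a log axis) in 11 marker-named cell types, with 1 point for the summed cells of a type in a library, coloured by stage label, and a bar at the mean. Perivascular cells stood above fibroblasts for Ccl11 (862 against 118 CPM) and Ccl2 (2881 against 1350 CPM), immune cells for Ccl9 (480 against 11 CPM), and the Ccl8 means were 36.4 CPM in fibroblasts and 18.1 CPM in proliferating cells.

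Fibroblasts were compared with 10 other cell types in a model with the library as a block, which gave 50 pairs of a member and a type. Of these, 39 were called higher in fibroblasts and 4 lower, at an adjusted p under 0.05 and a log2 fold change over 0.5. Over all genes, 20.7% of the gene and type pairs were called higher in fibroblasts and 14.2% lower. *Ccl8* was called higher in fibroblasts than in all 10 types, *Ccl7* than in 9, *Ccl11* than in 8, *Ccl9* than in 7 and *Ccl2* than in 5. The *Ccl8* call against immune cells covers 3 sums without a *Ccl8* UMI, and 2 of the 112 immune cells, in libraries with too few such cells to be summed, held 24. That against Schwann cells also covers 3 sums without a *Ccl8* UMI, from 82 cells. It was lost in DESeq2 (adjusted p = 0.0983) and, in edgeR, with RLE scaling (0.0585), total counts alone (0.0689) or doublets removed (0.0674). *Ccl9* lost its call against lymphatic endothelial cells with thinned cells (adjusted p = 0.0913) and in DESeq2 (0.0530), and against muscle cells with thinned cells (0.144) and in DESeq2 (0.208). *Ccl11* lost its call against muscle cells without the library block (0.0700). The median difference of all genes was 0.40 against immune, muscle and Schwann cells, 0.24 against lymphatic endothelial cells and 0.12 against chondrocytes, and log2 differences should be read relative to it.

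Endothelium, bone and cartilage cells held little of the abundant pair. Vascular endothelial cells, which line blood vessels, had 59.4 ± 47.5 CPM of *Ccl7* (n = 12), and fibroblasts were higher in 12 of 12 libraries, by 5.20 ± 0.37 on the log2 scale (SE, adjusted p = 1.58e-23, edgeR). *Ccl2* was 119 ± 89.5 CPM in the same cells (log2 difference 3.75 ± 0.40, adjusted p = 2.81e-14). Osteoblasts, the bone-forming cells, held 308 ± 253 CPM of *Ccl7* and 198 ± 201 CPM of *Ccl2*, both lower than in fibroblasts in 12 of 12 libraries. Chondrocytes, the cells of cartilage, were lowest for both, with 43.9 ± 42.9 CPM of *Ccl7* and 48.6 ± 44.8 CPM of *Ccl2* (n = 8).

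Tenocytes, the fibroblasts of tendon, were called lower than fibroblasts in every member but *Ccl2*. They had 810 ± 428 CPM of *Ccl2*, lower than fibroblasts in 10 of 12 libraries, and the difference (0.65 ± 0.36 on the log2 scale, adjusted p = 0.184) did not pass the threshold. It did without the library labelled resolving 1 (0.92, adjusted p = 0.0448) and with cells thinned to 2000 UMIs (1.13, adjusted p = 1.13e-04). *Ccl7* was lower in them, at 457 ± 307 CPM (difference 1.95 ± 0.32, adjusted p = 3.42e-07), and so were *Ccl11* at 2.65 ± 3.98 CPM and *Ccl8* at 1.06 ± 1.94 CPM. No *Ccl9* UMI was found in 721 tenocytes. Against a floor of 3 UMIs over all their sums, fibroblasts were at least 12.8-fold higher in *Ccl9*.

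Perivascular cells, the pericytes and smooth muscle cells that wrap small vessels, were the type with the most *Ccl2* and *Ccl11*. Their *Ccl11* ranged from 112 through a median of 570 to 2507 CPM (mean 862 ± 730, n = 12), and it exceeded the fibroblast value in 11 of 12 libraries, with a log2 difference of fibroblasts to perivascular cells of -2.66 ± 0.31 (adjusted p = 1.05e-11). *Ccl2* ranged from 935 through 2573 to 4763 CPM and was above fibroblasts in 12 of 12 libraries (difference -0.99 ± 0.35, adjusted p = 0.0142). This call rested on the library labelled resolving 3, without which the difference was -0.77 with an adjusted p of 0.0656. *Ccl7* went the other way, at 924 ± 590 CPM and lower than in fibroblasts in 11 of 12 libraries (difference 1.2 ± 0.30, adjusted p = 5.28e-04).

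The perivascular signal lay in 1 of its 2 clusters. The cluster led by *Rgs5*, *Cck* and *Higd1b* (469 cells), of which *Rgs5* is a pericyte marker, had 4462 ± 1588 CPM of *Ccl2* and 1325 ± 1277 CPM of *Ccl11* over 11 libraries. The cluster led by *Myh11* and *Tagln*, contractile genes of smooth muscle, had 178 ± 207 CPM of *Ccl2* and 34.1 ± 48.6 CPM of *Ccl11*. Within the *Rgs5* cluster, *Ccl11* spanned 237 to 4463 CPM, and the 3 libraries with suffixes 10 to 12 (1701 to 4463 CPM) overlapped with those of suffixes 7 to 9 (478 to 1761 CPM). Macrophage markers were near 0 in this cluster, with none of the 7 detected in 20% of its cells.

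Muscle cells, a cluster with satellite cell markers such as *Pax7*, had *Ccl2* at 1429 ± 809 CPM (427 to 3017, n = 8), a difference from fibroblasts of -0.14 ± 0.41 on the log2 scale (adjusted p = 0.826). The median difference of all genes was 0.40 in that comparison. *Ccl7* was 541 ± 369 CPM there and higher in fibroblasts in 7 of 8 libraries (1.37 ± 0.38, adjusted p = 0.00232). *Ccl8* and *Ccl9* had no UMI in 265 muscle cells. A floor of 3 UMIs over all muscle sums came to 4.14 CPM. The fibroblast means over all 12 libraries were 8.80-fold and 2.67-fold above it. No muscle sum came from suffixes 4 to 6, where fibroblast *Ccl9* was highest (22.2 to 27.0 CPM). The *Ccl9* value is therefore not a lower bound for the libraries with muscle sums. In suffixes 1 to 3, fibroblast *Ccl9* (0.933 to 2.1 CPM) lay below the floor. Schwann cells, which sheathe nerves, had *Ccl2* values of 26.9, 38.6 and 2783 CPM in their 3 libraries, so that 1 library carried the mean. In that library, 1 cell held 104 of the 113 *Ccl2* UMIs of all Schwann cells. The difference from fibroblasts was not called in edgeR (adjusted p = 0.287). Without that library, the one labelled resolved 3, it was called, at 5.63 on the log2 scale with an adjusted p of 3.47e-04.

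*Ccl9* had its highest level among the named types in immune cells. The immune cells left after the sort, 112 in all, had 235, 383 and 823 CPM in the 3 libraries that held 10 or more of them, all above the highest fibroblast value of 27.0 CPM (log2 difference of fibroblasts to immune cells -4.85 ± 0.26, adjusted p = 4.36e-25). All 327 *Ccl9* UMIs of immune cells lay in a cluster of 71 cells with macrophage and antigen-presenting genes, where 6 of 7 macrophage markers reached 20% of cells, and a cluster of 41 cells with neutrophil genes had none. Proliferating cells, which carry all 7 fibroblast markers beside the 6 cell cycle markers, had 51.9 ± 10.1 CPM of *Ccl9* (40.7 to 68.9, n = 6) and were above fibroblasts in 6 of 6 libraries (-1.49 ± 0.19, adjusted p = 5.32e-10). Sums of 10 or more such cells came from suffixes 4 to 9 alone, and their median depth was 11973 UMIs per cell against 5803 in fibroblasts. *Ccl11* and *Ccl8* went the other way in these cells. *Ccl11* was 8.83 ± 10.1 CPM and *Ccl8* 18.1 ± 9.18 CPM in proliferating cells, both called lower than in fibroblasts. *Ccl7* was 1639 ± 822 CPM and its difference (0.84 ± 0.38, adjusted p = 0.0776) passed the threshold without the library labelled rest 3 (0.95, adjusted p = 0.0476), peak 3 (0.93, 0.0437) or resolving 1 (0.87, 0.0482).

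The share of cells with at least 1 UMI followed the same order. At a common depth of 2000 UMIs per cell, *Ccl7* was detected in 39.0% of fibroblasts, *Ccl2* in 31.8%, *Ccl11* in 11.2%, *Ccl8* in 5.74% and *Ccl9* in 1.33%, with 182 shallower fibroblasts left out. Without thinning, at a median of 5803 UMIs, the shares were 50.6% (95% Wilson interval 49.7% to 51.5%), 41.1% (40.2% to 42.0%), 15.2% (14.5% to 15.8%), 9.76% (9.23% to 10.3%) and 4.03% (3.69% to 4.41%) in the same order. Free RNA in the droplets can put UMIs into cells that do not make a transcript, and as a gauge of it, thinned cells of the blood vessel lining held *Ccl7* in 7.32%, *Ccl2* in 7.60%, *Ccl11* in 1.37%, *Ccl8* in 0.137% and *Ccl9* in 0.0684% of cells. The median depth of these cells was 3059 UMIs and 202 were left out. They include a cluster of 35 cells in which each of the 7 fibroblast markers reached 20% of cells. In the largest vascular cluster alone (1120 cells), the thinned shares were 4.63% for *Ccl7*, 5.06% for *Ccl2*, 0.970% for *Ccl11*, 0.108% for *Ccl8* and 0.108% for *Ccl9*. The intervals cover counting error only.

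A minority of fibroblasts carried most of the transcripts. The top 10% of fibroblasts held 75.3% of the *Ccl2* and 68.3% of the *Ccl7* UMIs, and single cells reached 347 UMIs of *Ccl2* and 438 of *Ccl7*. The 1118 fibroblasts with *Ccl8* had a median of 1 UMI, and 34 of them had 10 or more. *Ccl11* lay between these, with 225 fibroblasts at 10 or more UMIs.

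Members that were found together also differed. At the common depth, *Ccl7* was detected in 73.2% of fibroblasts with *Ccl2* and in 23.1% of those without, higher in 12 of 12 libraries. *Ccl11* was detected in 30.9% of fibroblasts with *Ccl8* and in 10.0% of those without, also in 12 of 12 libraries. *Ccl9* went against *Ccl8* over the pooled cells, since 0.667% of the 150 fibroblasts with *Ccl9* had *Ccl8*, against 5.81% of the rest. The share was higher in none of 12 libraries, but that count carries little weight. Some libraries held few such cells, with 5, 10 and 8 *Ccl9* UMIs in all fibroblasts of suffixes 1, 2 and 3 before thinning. A share of 0 is likely there, and a library without such a cell was counted as not higher.

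**Figure D2:**
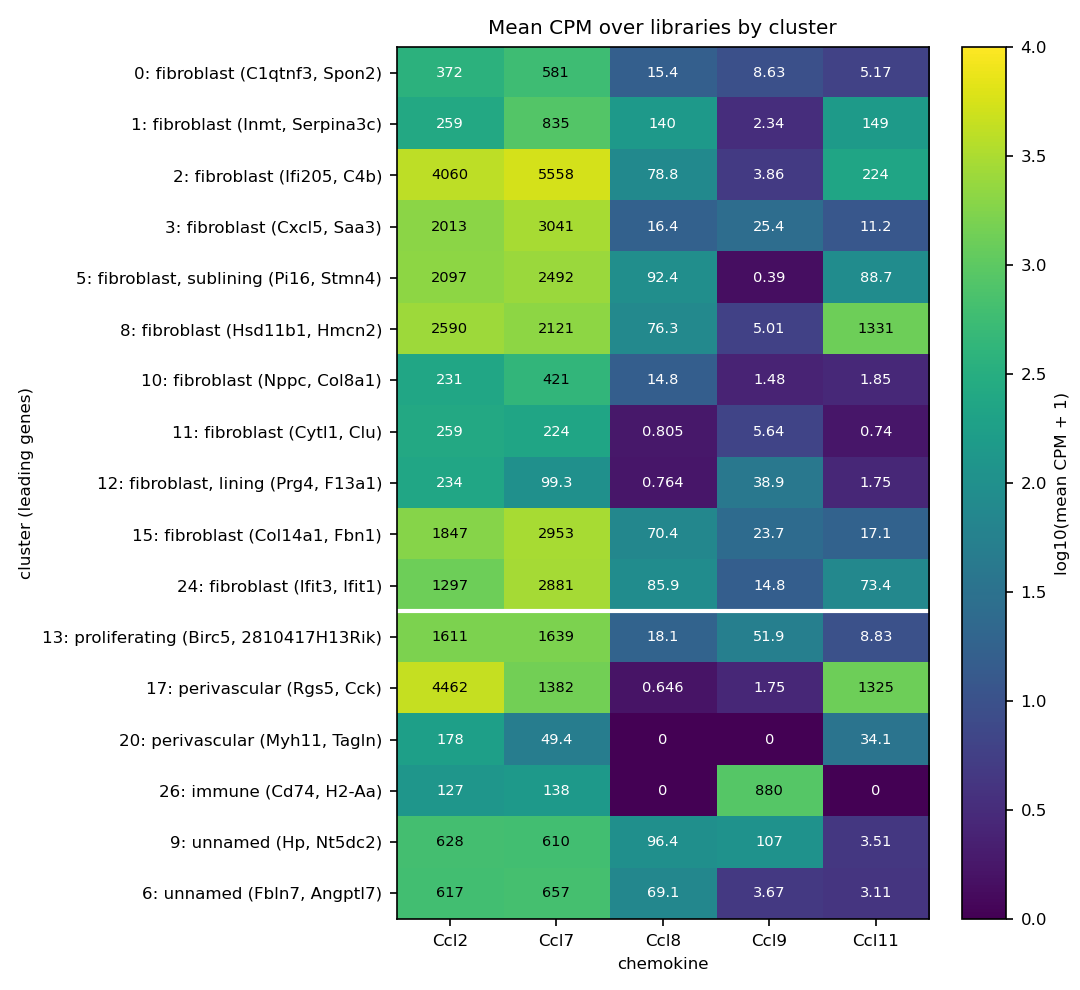
Mean CPM over libraries of each chemokine in the 11 fibroblast clusters (above the white line) and 6 other clusters, with the number printed and the colour giving log10(mean CPM + 1). Among the fibroblast clusters, Ccl2 and Ccl7 were highest in cluster 2 (4060 and 5558 CPM), Ccl11 in cluster 8 (1331 CPM), Ccl8 in cluster 1 (140 CPM) and Ccl9 in the lining cluster 12 (38.9 CPM).

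The fibroblast clusters sorted the members apart, which is given as a description because the clusters were formed from the same cells. A cluster led by *Ifi205*, *C4b* and *Ptx3*, an interferon-induced gene, a complement component and a pattern recognition protein, had 4060 ± 1383 CPM of *Ccl2* and 5558 ± 2017 CPM of *Ccl7* (n = 12), and *Ccl7* there ranged from 2622 to 8356 CPM. A cluster led by *Hsd11b1*, the enzyme that reactivates glucocorticoids, with *Hmcn2* and *Smoc2*, had 1331 ± 407 CPM of *Ccl11* (758 to 2205). The lowest of those 12 *Ccl11* values exceeded the highest in every other fibroblast cluster.

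*Ccl8* was highest in the cluster led by *Inmt* and *Serpina3c* (140 ± 93.4 CPM, n = 12) and in the sublining cluster (92.4 ± 89.5 CPM), values whose spreads overlap. In the cluster of *Cytl1* and *Clu* and in the lining cluster it was near 0 (0.805 and 0.764 CPM). A pair of unnamed clusters had high *Ccl8* means with SDs larger than the means, 96.4 ± 233 CPM in the cluster led by *Hp* and 69.1 ± 188 CPM in that led by *Fbln7*. The library labelled peak 2 gave 707 and 659 CPM in them against medians of 6.58 and 5.33 CPM, and 1 of its cells in the *Hp* cluster held 157 *Ccl8* UMIs.

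Across 31 clusters with sums of 10 or more cells, *Ccl2* and *Ccl7* had the most alike patterns among the members (Pearson r = 0.86 of log2(CPM + 1)), followed by *Ccl7* and *Ccl8* (0.72) and *Ccl2* and *Ccl11* (0.67), and *Ccl9* and *Ccl11* were the only pair with a negative value (-0.16). Among 10258 genes, the pattern closest to *Ccl2* was that of *Cxcl1* (0.87), a neutrophil chemokine, and those closest to *Ccl7* were *Mfap5* (0.88), *Dpt* (0.87) and *Fbn1* (0.87), matrix genes of connective tissue. *Col14a1* (0.87) was closest to *Ccl8*, *Ms4a4d* (0.77) to *Ccl11* and *Tomm5* (0.76) to *Ccl9*. The clusters share libraries and depth, and these correlations describe the clusters only.

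The ratio of *Ccl7* to *Ccl2* UMIs did not overlap between fibroblasts and perivascular cells. It was 1.27 ± 0.30 in fibroblasts (n = 12), above 1 in 10 of 12 libraries, and 0.325 ± 0.207 in perivascular cells, at or below 0.635 in each of 12. Within fibroblasts it ranged from 0.481 ± 0.257 in the lining cluster (n = 11) to 3.23 ± 1.51 in the *Inmt* cluster, where it exceeded 1 in 12 of 12 libraries.

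**Figure D3:**
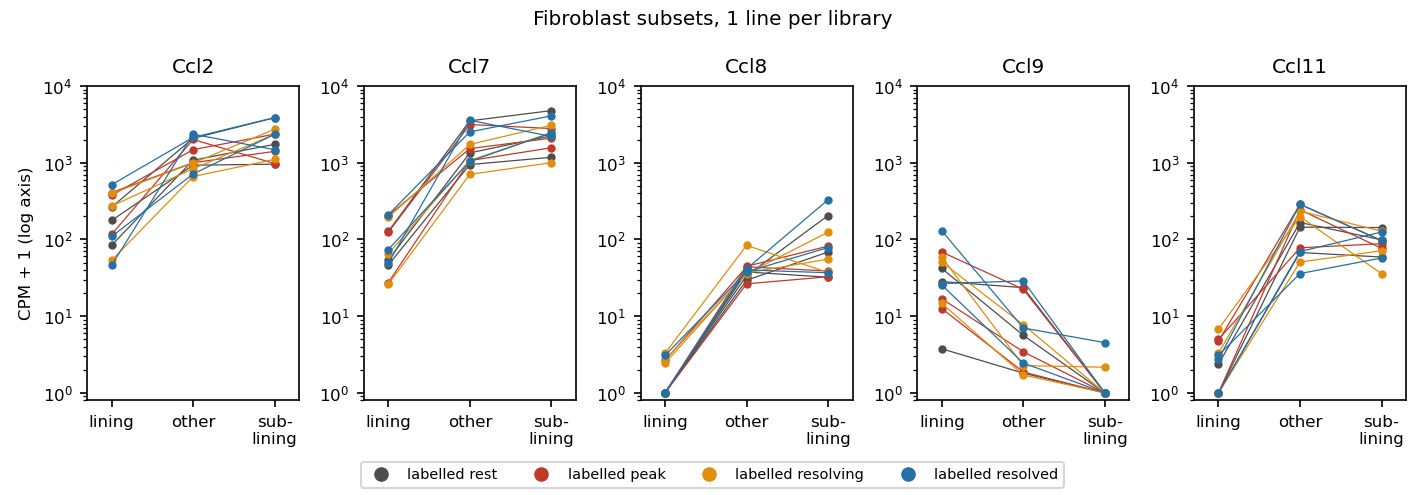
Level of each chemokine (CPM + 1 on a log axis) in lining, remaining and sublining fibroblasts, with 1 line for a library, coloured by stage label. Ccl2, Ccl7, Ccl8 and Ccl11 were lowest in the lining, and Ccl9 was highest there and at 0 in the sublining sums of 10 of 12 libraries.

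The lining, the fibroblast layer that faces the joint space and secretes lubricin (*Prg4*), was poor in 4 members and rich in the fifth. All 5 members were called between the lining cluster (823 cells) and the equally weighted mean of the sublining cluster and the remaining fibroblasts, where 30.3% of all genes were called. *Ccl7* was 99.3 ± 69.8 CPM in the lining (25.1 to 209, n = 12) and 1847 ± 1055 CPM in the remaining fibroblasts, and these groups did not overlap. Its log2 difference was -4.50 ± 0.20 from the equally weighted mean (adjusted p = 4.95e-19, edgeR) and -4.28 ± 0.20 from the remaining fibroblasts alone. *Ccl2* was 234 ± 160 CPM in the lining (44.8 to 515), against 1354 ± 622 CPM in the remaining fibroblasts (660 to 2353). Its difference was -2.99 ± 0.25 from the equally weighted mean (adjusted p = 5.04e-12, edgeR) and -2.72 ± 0.26 from the remaining fibroblasts alone.

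*Ccl11* (1.75 ± 1.93 CPM) and *Ccl8* (0.764 ± 0.966 CPM) were low in the lining, and were at 0 in 5 and 7 of its 12 sums. Their differences were -5.70 ± 0.37 (adjusted p = 1.21e-14) and -5.83 ± 0.57 (adjusted p = 2.62e-10). *Ccl9* was higher in the lining, at 38.9 ± 34.6 CPM (2.76 through a median of 26.4 to 129), than in the remaining fibroblasts (8.05 ± 9.88 CPM). Its difference from the equally weighted mean, which includes the *Ccl9*-poor sublining, was 4.42 ± 0.46 (adjusted p = 9.24e-10, edgeR). Against the remaining fibroblasts alone it was 2.53 ± 0.31 (adjusted p = 2.58e-08). None of the 7 macrophage markers was detected in 20% of lining cells, 3 of them had no UMI, and the gene for CD45 (*Ptprc*) had none, while the *Ccl9* UMIs in these cells numbered 274.

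The sublining cluster (1325 cells), with *Pi16* and *Dpp4* of the deeper connective tissue, gave an answer that depended on what it was set against. It is the fibroblast cluster with 3 sublining markers, and it may not hold all fibroblasts of the sublining. The remaining fibroblasts include the cluster led by *Inmt*, with 2 of these markers, and the *Ccl11*-rich cluster led by *Hsd11b1*, with 1. Against the mean of lining and remaining fibroblasts, all 5 members were called, where 18.7% of all genes were, with *Ccl2*, *Ccl7*, *Ccl8* and *Ccl11* higher and *Ccl9* lower. Against the remaining fibroblasts alone, an alternative chosen after seeing the data, *Ccl11* turned direction (88.7 ± 31.8 against 154 ± 93.7 CPM, difference -0.94 ± 0.20, adjusted p = 4.89e-04). *Ccl2* (0.54 ± 0.24, adjusted p = 0.0964) and *Ccl7* (0.44 ± 0.17, adjusted p = 0.0488) were then not called, and *Ccl8* (0.69 ± 0.24, adjusted p = 0.0314) and *Ccl9* (-3.77 ± 1.08, adjusted p = 0.00759) kept their direction and call. The sublining cluster held 2 *Ccl9* UMIs in all.

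The study split fibroblasts by *Hk2*, which encodes hexokinase 2, an enzyme that commits glucose to glycolysis. Cells with at least 1 *Hk2* UMI numbered 5306 and those with none 6152, and 2 of the 5 members, *Ccl2* and *Ccl7*, were called higher in the former, where 7.09% of all genes were called. *Ccl2* ranged from 1138 through a median of 1990 to 3034 CPM in *Hk2*-positive cells and from 271 through 548 to 1499 CPM in *Hk2*-negative cells. It was higher in the positive cells of 12 of 12 libraries, by 1.83 ± 0.15 on the log2 scale (adjusted p = 5.54e-08). *Ccl7* ranged from 1250 through 2275 to 4234 CPM in positive and from 346 through 732 to 2210 CPM in negative cells, with a difference of 1.69 ± 0.13 (adjusted p = 2.85e-08), also in 12 of 12 libraries.

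**Figure D4:**
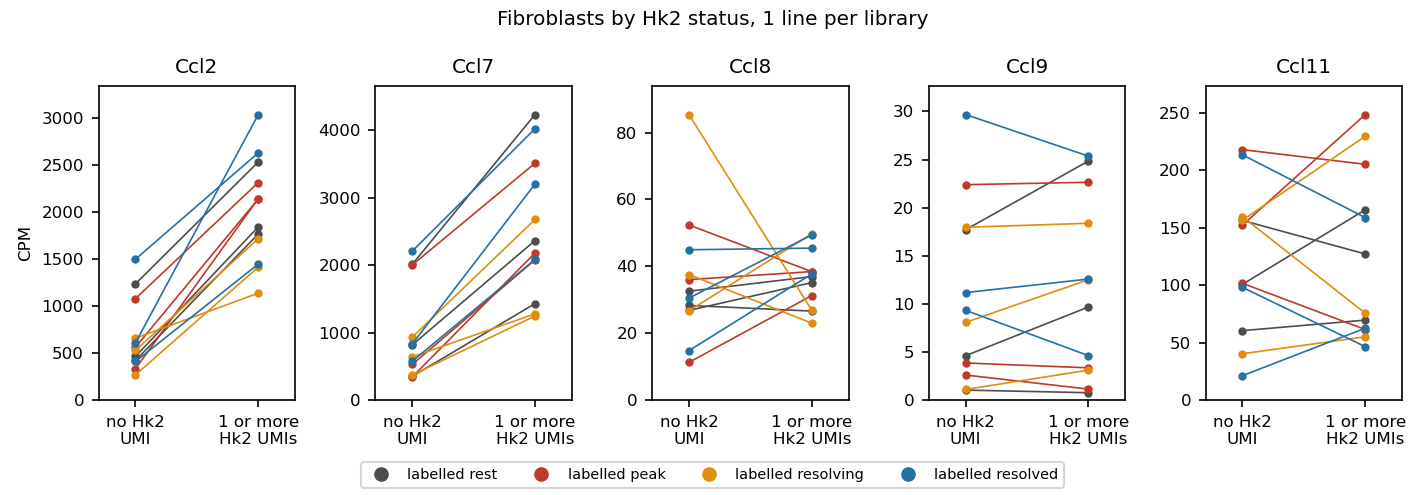
Level of each chemokine (CPM, axes from 0 and scaled for each gene) in fibroblasts without and with an Hk2 UMI, with 1 line for a library, coloured by stage label. Ccl2 and Ccl7 rose in 12 of 12 libraries, and lines of Ccl8, Ccl9 and Ccl11 ran both ways.

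The other members did not pass the threshold by *Hk2* status. *Ccl8* was 36.6 ± 8.68 CPM in positive and 35.6 ± 19.3 CPM in negative cells (difference 0.29 ± 0.19, adjusted p = 0.262), *Ccl9* 11.6 ± 9.30 and 10.8 ± 9.25 CPM (0.23 ± 0.13, adjusted p = 0.185), and *Ccl11* 125 ± 73.7 and 123 ± 63.3 CPM (0.16 ± 0.17, adjusted p = 0.522). For *Ccl8* and *Ccl11* this changed under alternatives. *Hk2*-positive cells had a median of 6238 UMIs against 5386. To match UMIs, equal numbers of positive and negative cells were drawn per UMI bin of a library, so cells of either group were left out. *Ccl8* and *Ccl11* were then called in edgeR, at 0.54 ± 0.15 (adjusted p = 0.0114) and 0.59 ± 0.10 (adjusted p = 1.96e-04). With each cell thinned to 2000 UMIs, and *Hk2* status read from the thinned counts, both were called too, at 0.76 and 0.67. Matching in cluster drew equal numbers of both groups from each cluster of a library. The difference was then 1.12 ± 0.08 for *Ccl2* and 1.0 ± 0.07 for *Ccl7*, both with an adjusted p of 8.71e-10. *Ccl8* was called there at 0.52 ± 0.16 (adjusted p = 0.0280).

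Several genes of inflammatory signalling were higher in the same cells. Of 20 listed genes of the tumour necrosis factor, interleukin, interferon and NF-κB pathways, 9 were called higher in *Hk2*-positive fibroblasts and none lower (median difference 0.42, against -0.01 over all genes). They included *Nfkb1*, a subunit of NF-κB (1.59, adjusted p = 1.39e-10), *Tnfaip3*, its feedback inhibitor (0.98), and *Osmr*, the oncostatin M receptor (0.94). *Cxcl1* (1.75 ± 0.12, adjusted p = 3.80e-09) and *Il6* (1.65 ± 0.15, adjusted p = 1.33e-07) differed by about as much as *Ccl2*. Of 20 dissociation and immediate early genes, which rise during tissue digestion, 5 were called higher and none lower (median 0.42), and their summed level was 26786 ± 5986 CPM in positive and 25534 ± 4881 CPM in negative cells. Its part in the chemokine difference was not tested.

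By stage label, no member was called in fibroblasts at peak, resolving or resolved against rest. The study reported *Ccl2* among genes upregulated at peak against rest, in *Hk2*-positive fibroblasts and with a Wilcoxon test over cells. The fits here used sums of all fibroblasts with the library as the unit, so the 2 results are not like for like. Among 11755 genes the share called was 0% at peak, 0% at resolving and 0% at resolved in edgeR, with 83, 78 and 66 genes at an unadjusted p under 0.05 and none of the 5 members among them. DESeq2 called none of the 5 either, and 1 gene in all, at resolving. With the run of suffixes as a block, edgeR called none of the 5, with 0, 2 and 1 of them at an unadjusted p under 0.05 at peak, resolving and resolved. *Ccl2* was 893, 1057 and 2051 CPM in the libraries labelled rest, 984.8, 1531 and 1915 in those labelled peak, 701, 947 and 1029 in those labelled resolving and 728, 2162 and 2201 in those labelled resolved. These groups overlapped, as did those of the other 4 members with rest at each stage. The estimates leave room for sizeable changes, since the SE of the log2 difference from rest was 0.47 for *Ccl2*, 0.63 for *Ccl7* and 1.08 for *Ccl9* at peak.

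**Figure D5:**
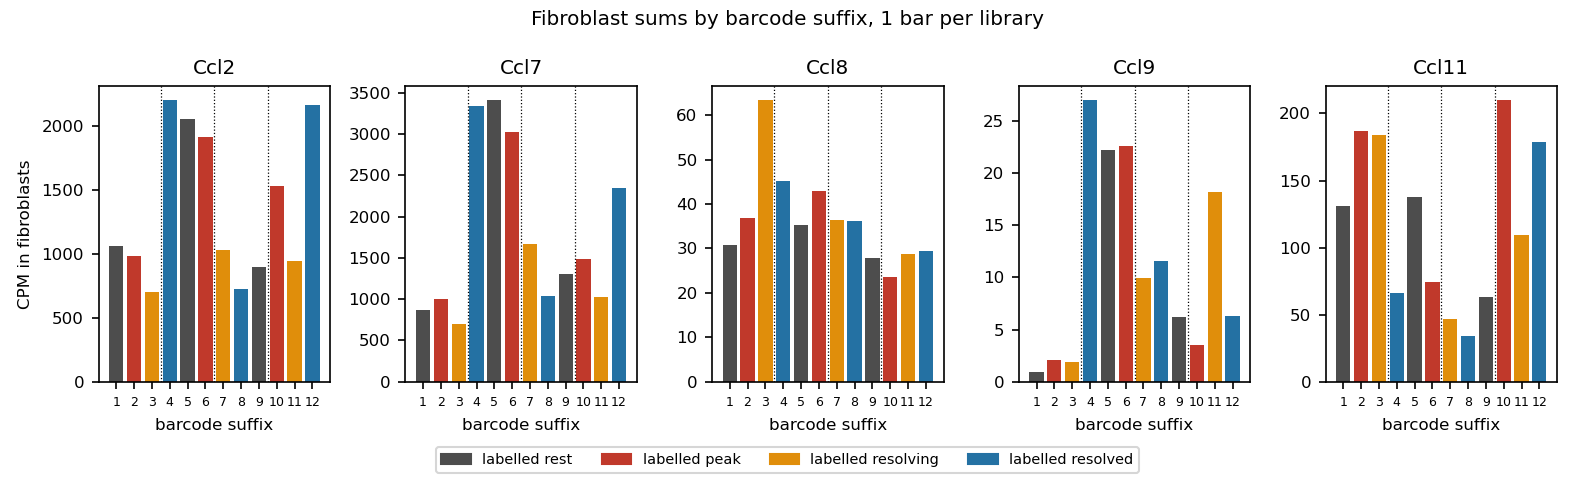
Level of each chemokine in summed fibroblasts (CPM, bars from 0), with 1 bar for a library in order of barcode suffix, coloured by stage label, and dotted lines between runs of 3 suffixes. Suffixes 4 to 6 carried 3 labels and were the highest 3 libraries for Ccl7 (3027 to 3411 CPM) and Ccl9 (22.2 to 27.0 CPM), and suffixes 7 to 9 the lowest run for Ccl11.

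By run of suffixes, 4 of the 5 members differed, where 56.6% of all genes did at an adjusted p under 0.05. Since the runs were noticed in these same data, these p-values describe how unlike the runs were. *Ccl7* was 703, 864 and 1007 CPM in suffixes 1 to 3 and 3027, 3338 and 3411 CPM in suffixes 4 to 6 (adjusted p over the 4 runs 1.90e-04), and these runs did not overlap. *Ccl9* was 0.933 to 2.1 CPM in suffixes 1 to 3, 22.2 to 27.0 in 4 to 6, 6.20 to 11.6 in 7 to 9 and 3.57 to 18.2 in 10 to 12 (adjusted p = 2.18e-04). *Ccl2* was highest in suffixes 4 to 6 (1915 to 2201 CPM, adjusted p = 0.00134), with suffixes 10 to 12 overlapping (947 to 2162 CPM).

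*Ccl11* had a different order from *Ccl7*. It was 131 to 187 CPM in suffixes 1 to 3 and 109 to 210 CPM in 10 to 12, and 34.0 to 63.4 CPM in 7 to 9 (adjusted p = 0.00123). *Ccl8* varied least, from 23.6 to 63.4 CPM over all libraries, and was not called (adjusted p = 0.0741), though it was without the library labelled rest 1 (adjusted p = 0.0130) or resolving 1 (0.0220). The ratio of *Ccl7* to *Ccl2* split the runs without overlap, at 1.43 to 1.66 in the 6 libraries of suffixes 4 to 9 and at 0.817 to 1.09 in the other 6.

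The make-up of the fibroblasts moved with the runs. The cluster led by *Cxcl5* and *Saa3*, with 3041 ± 823 CPM of *Ccl7* and 25.4 ± 8.0 CPM of *Ccl9*, made up 43.9% of fibroblasts in suffixes 4 to 6 and 0.0838% in suffixes 1 to 3. The cluster led by *C1qtnf3*, with 5.17 CPM of *Ccl11*, made up 42.6% in suffixes 7 to 9. Differences between runs also stood within clusters. In the *Inmt* cluster, *Ccl7* was 154 to 264 CPM in suffixes 1 to 3 and 1598 to 1921 CPM in 4 to 6, and in the lining cluster *Ccl9* was 2.76 to 13.7 CPM in suffixes 1 to 3 and 25.6 to 67.5 CPM in 4 to 6. The dissociation and immediate early list moved with the runs too, at 20226 to 23629 CPM in suffixes 4 to 9 and 25405 to 34159 CPM in the other 6 libraries, and its part was not tested. Markers of other cell types in the fibroblast sums did so in part. The summed perivascular markers were 109 to 260 CPM in suffixes 4 to 9 and 56.1 to 100 CPM in the other 6 libraries, without overlap. The summed immune markers were 2.1 to 5.66 CPM in suffixes 1 to 3, 5.80 to 15.2 CPM in 4 to 6, 12.5 to 16.9 CPM in 7 to 9 and 5.34 to 6.45 CPM in 10 to 12, and the 7 macrophage markers 2.38 to 4.48 CPM over all libraries. The part of these markers in the differences between runs was not tested.

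Other genes of the family and the receptors filled in the picture. Of 16 other CC chemokines, the largest total was that of *Ccl21a*, which guides dendritic cells into lymph vessels, with 33960 CPM in lymphatic endothelial cells and 3.25 CPM in fibroblasts. *Ccl3* (283 CPM), *Ccl4* (579 CPM) and *Ccl6* (222 CPM) were highest in the residual immune cells and under 1 CPM in fibroblasts. *Ccl20* (66.0 CPM) and *Ccl5* (47.9 CPM) were called higher in proliferating cells than in fibroblasts (19.9 and 3.01 CPM), with log2 differences of fibroblasts to proliferating cells of -0.86 and -2.76. *Ccl12*, the neighbour of *Ccl8*, had 0.10 CPM in fibroblasts, and *Ccl26* had no UMI in any cell.

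The signalling receptors of the members were scarce in these sorted cells. *Ccr1* and *Ccr2* had 122 and 113 CPM in residual immune cells and 0.09 and 0.01 CPM in fibroblasts, *Ccr3* had 6 UMIs in all and *Ccr8* had 1. The atypical receptors, which bind CC chemokines without signalling to migration, were found in stromal cells. *Ackr1* was 63.7 CPM in vascular endothelial cells and 13.6 CPM in fibroblasts, and *Ackr2* was 82.8 CPM in lymphatic endothelial cells and 12.6 CPM in fibroblasts. Among fibroblasts the lining was higher in *Ackr2* (2.37, adjusted p = 2.26e-10, edgeR) and lower in *Ackr1* (-2.26, adjusted p = 8.04e-07). The sublining cluster was higher in *Ackr1* (2.48), and all 3 values are against the mean of the other fibroblast groups.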

How the data were processed

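Single-cell RNA was captured with 10x Genomics 3′ chemistry. The authors aligned the reads to mm10 with Cell Ranger and deposited, for each library, a matrix of whole-number UMI counts per gene and cell, not normalized. The equal median depth of the 12 libraries is not described in the study's methods.

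Cells were kept with over 500 and under 5000 genes and over 500 and under 20000 UMIs (under 40000 at peak, 25000 in resolving 1 and 30000 in the other resolving libraries), as in the study. Counts were scaled to 10000 per cell, and 2000 variable genes, 30 principal components, 20 neighbours and Leiden clustering at resolution 1 (scanpy 1.11.5, leidenalg 0.10.2) gave the clusters, which were named from marker lists. Scrublet marked 56 cells (0.279%), too few to have worked, so doublets stayed in, and the 1204 highest-scoring cells were left out as an alternative. Raw counts were summed per library and cell type, subset or *Hk2* status where at least 10 cells were present, and tested with edgeR 4.0.16 (quasi-likelihood, TMM, filterByExpr, Benjamini-Hochberg over all genes tested). The library was a block wherever groups came from the same libraries. SEs are the log2 difference divided by the square root of F. A call needed an adjusted p under 0.05 and, except over runs, an absolute log2 difference over 0.5. The scripts were tested on simulated data. DESeq2 1.42.0, other scalings and filters, thinning to 2000 UMIs and leaving out each library were alternatives. Nothing in the labels says that libraries are more than separate pools. With the library as a block, p-values measure how differences within a library vary from pool to pool. Without it, they measure the spread between pools. The stage fits without the run as a block do not take the likeness of libraries within a run into account.

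The members and gene lists were chosen with earlier results of these data known. Named genes are the 5 members, the 3 genes with the most alike pattern for each, and genes of the fixed lists. Sequences were read from the GRCm38 genome with GENCODE M21.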

Additional observations from a re-analysis of the deposited data

Results flagged for a closer look

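Among 15 groups of 4 to 10 libraries that were tested for a library far from the others, 6 had one. The limits used flag about 1 in 20 groups of normally spread values. That rate does not apply to these sums, which hold many zeros and differ in depth. A group at 0 in all libraries but 1 is always flagged, so the count of 6 is not set against chance. *Ccl11* in proliferating cells was 28.7 CPM in the library labelled rest 2 (57 UMIs), against 1.91 to 9.60 CPM in the other libraries. *Ccl11* in muscle cells was 221 CPM in the library labelled rest 1 (28 UMIs), against 0 to 45.8 CPM. *Ccl7* in chondrocytes was 140 CPM in the library labelled rest 2, a sum of 16 cells, against 7.40 to 61.1 CPM.

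The other 3 rest on 1 UMI each. They are *Ccl8* in chondrocytes at 18.7 CPM in the library labelled peak 2, *Ccl11* in chondrocytes at 8.73 CPM in the library labelled rest 2, and *Ccl9* in lymphatic endothelial cells at 8.27 CPM in the library labelled resolved 2.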

How the results depend on the processing

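Of the alternatives for single members, 1944 kept their side of the threshold and 27 passed it where the reported value had not. A further 20 no longer passed it, and 1 reversed its direction with a call. A change of sign with no call in either fit counts among the 1944, and fits over runs have no direction. *Ccl9* against Schwann cells, for example, went from -0.29 to 5.51 without rest 1, uncalled in both. Of the counts of members called, 215 stayed within 1.5 times and 3 moved. Set against the remaining fibroblasts alone, an alternative chosen after seeing the data, the sublining cluster had 3 members called and *Ccl11* at -0.94. By *Hk2* status, 4 members were called with thinned cells and 4 with cells matched in UMIs, and thinning left *Ccl9* below the filter. Leaving out 1 library gave 38 to 41 member and type pairs called higher in fibroblasts and 3 to 4 lower, 5 to 5 members in the lining, 5 to 5 in the sublining, 2 to 2 by *Hk2* status, 0 to 0 at each stage and 4 to 5 over runs. *Ccl7* against proliferating cells passed the threshold under 9 alternatives. *Ccl11* against immune cells lost its call without peak 2 (adjusted p = 0.221), resolving 2 (0.0793) or resolved 2 (0.0601), *Ccl8* against Schwann cells lost it without rest 1 (0.0832), peak 3 (0.101) or resolved 3 (0.0703), and *Ccl11* against Schwann cells gained it without rest 1 (0.0195).

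Same-numbered libraries had correlated deviations in some pairs and opposite ones in others (-0.52 to 0.64), so the numbers do not pair them. With the replicate block, 0 members were called at peak, 0 at resolving and 0 at resolved, and 4 over runs. Over all genes, 6653 differed over runs, 4309 with the replicate block and 3297 with thinned cells. Thinning also lowered the calls in the lining from 2283 to 1068 and in the sublining from 1410 to 646, no filter on low counts raised them to 3855 and 2240, and matching in cluster lowered those by *Hk2* status from 703 to 329. Scaling by total counts alone moved the median of all genes to -0.13 by *Hk2* status, -0.26 against vascular and -0.28 against lymphatic endothelial cells. Depth limits *Ccl8* and *Ccl9* most, since a sum at 0 in a small cell type sets only a bound, and the causes of the moved values were not tested.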

Other observations

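An unnamed cluster led by *Hp*, *Nt5dc2* and *Aldh1a2* (891 cells), which shares *F13a1* and *Col22a1* with the lining cluster among its leading genes, had 107 ± 116 CPM of *Ccl9* (SD, n = 9 libraries), from 0 through a median of 57.2 to 336 CPM. All 7 fibroblast markers were detected in 20% of its cells or more. Its mean *Ccl9* was above that of the lining cluster (38.9 CPM). None of the 7 macrophage markers was detected in 20% of its cells, and these markers summed to 3.03 CPM. A second small cluster led by *Rgs5* and *Kcnj8* (104 cells), left unnamed, had 994.9 ± 475 CPM of *Ccl2* and 203 ± 184 CPM of *Ccl11* in 3 libraries, with 45.0 ± 33.3 CPM of *Ccl7*. A fibroblast cluster led by the interferon-induced genes *Ifit3*, *Ifit1* and *Isg15* (95 cells) had 2881 ± 1752 CPM of *Ccl7* and 85.9 ± 83.5 CPM of *Ccl8* in 3 libraries.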
